A study of Mus musculus with 12 samples.

Results

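The genes described here are the ErbB receptors and the EGF-family growth factors that bind them, measured as mRNA in cultured mouse cardiac fibroblasts. They were taken by symbol from the deposited gene table, which gave 10 of 35275 genes: the receptors Egfr, Erbb2 and Erbb3, the EGF-like ligands Hbegf, Ereg, Btc, Tgfa and Egf, and the neuregulins Nrg1 and Nrg2. All 10 passed the filter on low counts that left 15150 genes for testing. The study asked how the inhibitory Smad protein Smad7 shapes the transcriptome of cardiac fibroblasts with and without TGF-β1. Control and Smad7-KO cells were each sequenced without stimulation and after TGF-β1, which gave 4 conditions of 3 libraries.

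All cells came from the hearts of 12-week-old C57BL/6 mice (C57BL/6J in the study's methods) with a floxed Smad7 gene and were used at passage 2, so the control cells, titled wild type in the labels, carried the floxed alleles as well. Smad7-KO cells were infected for 48 hours, at a multiplicity of infection of 100, with an adenovirus that expresses Cre, and control cells with a control adenovirus. The labels say that the control virus expressed GFP, whereas the study's methods describe it as empty. Stimulated cells received TGF-β1 at 10 ng/ml, for 2 hours by a label field and for 4 hours by another. The labels do not say whether the 3 libraries of a condition came from separate animals or cultures, so p values here measure only the spread between libraries, which may be technical. The main edgeR fit estimated that spread for each gene from all 12 libraries together, although it differed between conditions.

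ErbB receptors are tyrosine kinases of the cell surface that signal as pairs. EGFR binds EGF, TGF-α, HB-EGF, betacellulin and epiregulin, ErbB3 binds neuregulins and has little kinase activity of its own, and ErbB2 has no known ligand and acts as the preferred partner of the others. The ligands are made as membrane-bound precursors that proteases of the ADAM family release. In the heart, neuregulin from endothelial cells is known for acting on cardiomyocytes, and HB-EGF is known as a product of many stressed or stimulated cells. Receptor protein and its phosphorylation were not measured in these libraries.

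The libraries held 19056916 to 25371321 counts each (median 22660845). Levels are given as CPM, the count of a gene scaled to the size of its library. Smad7 itself, on chromosome 18, had 74.4 ± 2.94 CPM in control libraries without stimulation and 29.4 ± 1.48 CPM in those of Smad7-KO cells (SD, n = 3 each). After TGF-β1, control libraries held 146 ± 4.24 CPM and Smad7-KO libraries 76.8 ± 5.89 CPM of it. Reads over the whole gene thus remained at 39.5% of the unstimulated control mean and at 52.7% of the TGF-β1 control mean. Unstimulated control libraries spread most, with a biological coefficient of variation (the spread beyond counting noise) of 0.334 against 0.0529 to 0.137 in the other conditions. Within that condition, the levels of long genes relative to all libraries were low in libraries 1 and 2 (Spearman's rho with gene length of -0.4 and -0.54 across genes) and high in library 3 (0.3), and the 6 Smad7-KO libraries were at 0.07 to 0.38. TGF-β1 control libraries 1 to 3 were at 0.2, -0.37 and -0.17. Summed markers of fibroblasts came to 7370 to 11400 CPM over the 12 libraries and those of macrophages to 16200 to 26000 CPM, so the cultures were not fibroblasts alone by their mRNA. In such bulk samples, fewer cells of a type and less RNA per cell cannot be told apart.

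Levels can be compared between genes only per gene length, for which the deposited FPKM values (counts scaled to the library total and the gene's length) were used. In unstimulated control cells Ereg, which encodes epiregulin, was highest at 14.9 ± 1.34 FPKM (SD, n = 3), and Hbegf, which encodes HB-EGF, followed at 11.5 ± 0.921 FPKM. Nrg1 had 7.04 ± 3.43 FPKM, with library values from 3.94 to 10.7, which overlapped both those of Hbegf (10.5 to 12.2) and those of Erbb2 (2.54 to 4.36). For comparison, the median over all tested genes, each taken as its mean over all 12 libraries, was 6.37 FPKM. The receptors Erbb2 and Egfr were at 3.45 ± 0.907 and 2.9 ± 1.1 FPKM and their libraries overlapped. Tgfa had 1.52 ± 0.519 FPKM, with its highest library above the lowest of Egfr, and Btc, which encodes betacellulin, had 1.05 ± 0.0751 FPKM, below every Tgfa library. Egf, Erbb3 and Nrg2 formed the low end at 0.288 ± 0.0545, 0.217 ± 0.127 and 0.213 ± 0.0805 FPKM, with overlapping libraries. Per library, Nrg2 was counted 1 to 20 times, Erbb3 9 to 69 times and Egf 14 to 38 times, so counting error limits these 3 genes more than the others.

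**Figure D1:**
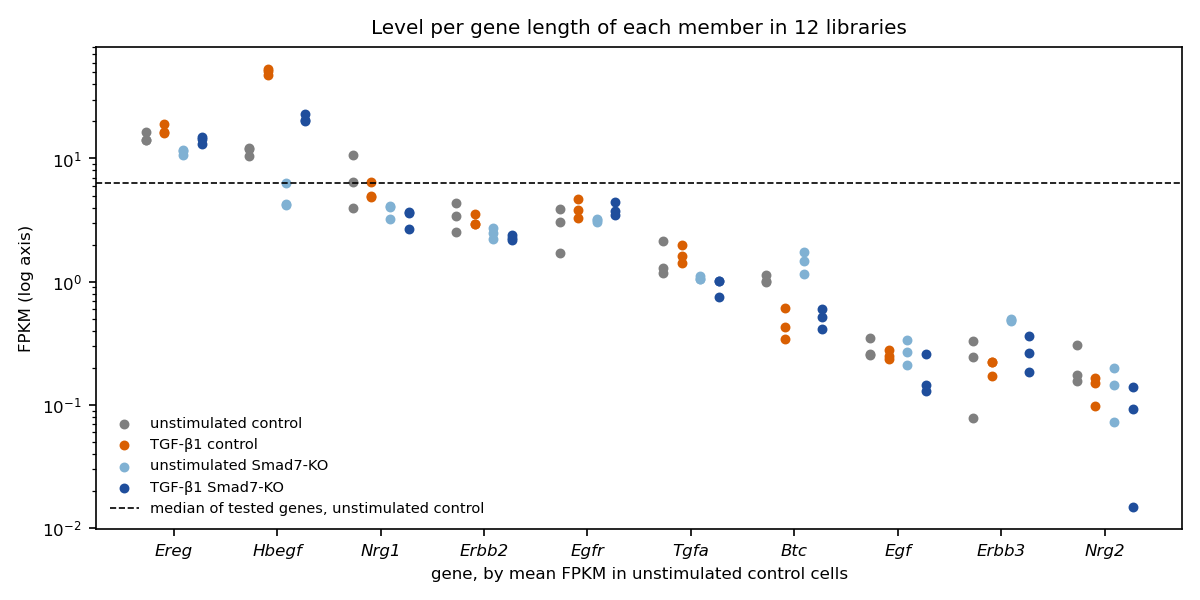
FPKM on a log axis for each of the 10 genes in each of the 12 libraries, coloured by condition and ordered by the mean in unstimulated control cells. Every library of unstimulated control cells lies above the dashed median of all tested genes for Ereg and Hbegf, and Egf, Erbb3 and Nrg2 stay under 0.5 FPKM in every library. That median is of each gene's mean over all 12 libraries, not over unstimulated control cells as the legend says.

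The deposited table gives gene positions on GRCm38. Btc lies on chromosome 5 (minus strand, 91357261 to 91402994), and Ereg on the same chromosome, on the plus strand from 91074617 to 91093649. Tgfa is on chromosome 6 (plus strand, 86195251 to 86275449), Erbb3 on chromosome 10 (minus strand, 128567523 to 128589652) and Egf on chromosome 3 (minus strand, 129677575 to 129755322). Egfr (chromosome 11, 16752203 to 16918158) overlaps the antisense gene Egfros, which had 51 reads over all 12 libraries, and Erbb2 (chromosome 11, 98412470 to 98437716) overlaps the end of the opposite-strand gene Mien1, which had 1392. Whether strand was used in counting is not given in the sources used here, so reads in these overlaps are uncertain. For Nrg1 (chromosome 8), the deposited interval from 31818028 to 31918203 covers 9.37% of the span that GENCODE M21 gives the gene, so isoforms that start farther upstream may be counted in part only.

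The response to TGF-β1 was the main comparison. Hbegf rose and Btc fell, in both genotypes, and Ereg rose in Smad7-KO cells. In control cells 2 of the 10 genes passed an adjusted p of 0.05 (1 higher, 1 lower), against 8.37% of all tested genes (5.04% higher, 3.33% lower). In Smad7-KO cells 3 of the 10 passed (2 higher, 1 lower), against 10.2% of all tested genes (5.33% higher, 4.9% lower). The median log2 fold change over the 10 genes was -0.13 in control and -0.17 in Smad7-KO cells, beside -0.03 and -0.01 over all tested genes. With TGF-β1, 2 of 8 tested smooth muscle and pericyte markers rose in control cells and 3 of 8 in Smad7-KO cells, and their sum went from 180 to 294 CPM to 348 to 408 CPM and from 219 to 227 CPM to 323 to 351 CPM. Most of this was Pdgfrb, a receptor that fibroblasts express too, at mean levels of 145 and 274 CPM in control cells and 155 and 267 CPM in Smad7-KO cells (edgeR adjusted p = 0.00728 and 0.0151). Without it the sums were 75.4 to 100 CPM and 99.5 to 102 CPM in control cells, which overlap, and 64.6 to 73.1 CPM and 71.6 to 76.4 CPM in Smad7-KO cells, which overlap too. In each of the other marker lists at most 1 gene rose and 1 fell with TGF-β1. Mesothelial and epithelial sums were lower in control cells (283 to 314, then 265 to 280 CPM), and cardiomyocyte sums there met at 34 CPM. In Smad7-KO cells fibroblast sums were lower (9370 to 10000, then 8520 to 8620 CPM) and endothelial sums just higher (25.8 to 28, then 28.1 to 28.8 CPM). Without its highest gene the fibroblast list overlapped there. The other sums overlapped. The part of these cell types in the response was not tested.

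Of the 10 genes Hbegf, on chromosome 18 (minus strand, 36504929 to 36515805), moved most with TGF-β1. Unstimulated control libraries 1 to 3 had 27.7, 31.5 and 23.9 CPM, and TGF-β1 control libraries had 124, 120 and 112 CPM. Every stimulated library was far above every unstimulated one. The rise was 4.28-fold in edgeR (95% confidence interval 3.34 to 5.49, log2 fold change 2.1, SE 0.163, Benjamini-Hochberg adjusted p = 1.33e-05). By its p value Hbegf ranked at 41 of the 15150 genes and by the size of its rise at 105. An exact permutation test of 3 libraries against 3 cannot go under p = 0.1 (two-sided), whatever the separation.

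In Smad7-KO cells Hbegf started lower and rose by much the same factor. Unstimulated Smad7-KO libraries had 10, 9.83 and 15 CPM, and TGF-β1 Smad7-KO libraries had 48.9, 50 and 55.2 CPM. The rise was 4.42-fold (95% interval 3.43 to 5.69, log2 fold change 2.14, SE 0.166, edgeR adjusted p = 9.39e-06). The difference between both responses was 0.05 on the log2 scale, with a 95% interval from -0.44 to 0.54 and an unadjusted p of 0.841 in edgeR. The interval leaves room for responses that differ by up to 1.45-fold. No library of any condition overlapped those of the next condition in the order of Hbegf levels, which ran TGF-β1 control (119 ± 6.28 CPM), TGF-β1 Smad7-KO (51.4 ± 3.35), unstimulated control (27.7 ± 3.8) and unstimulated Smad7-KO (11.6 ± 2.92; SD, n = 3 each).

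**Figure D2:**
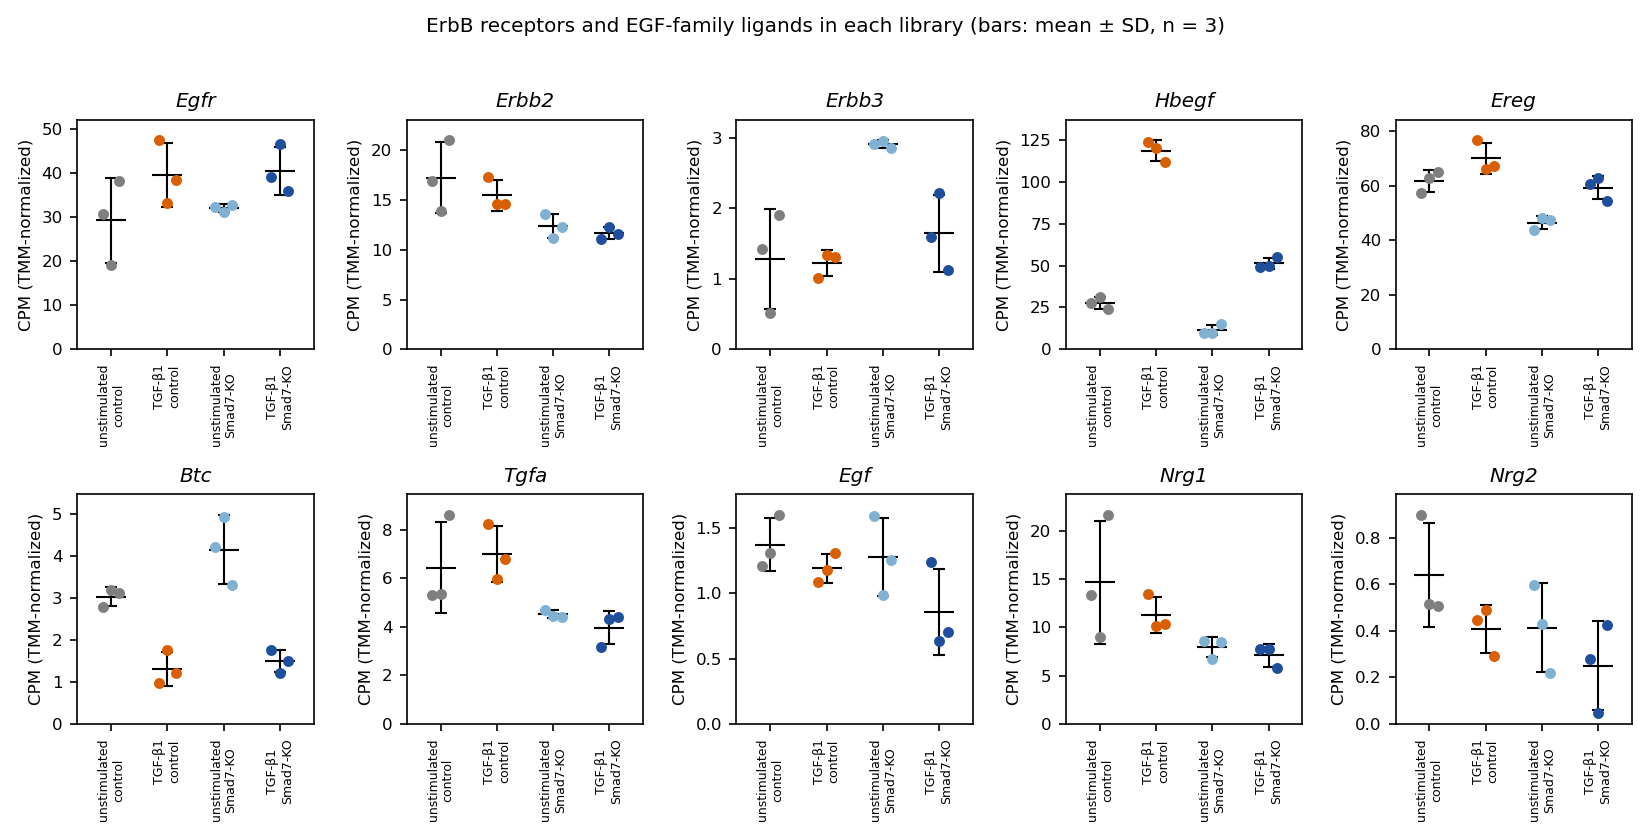
CPM of each of the 10 genes in each library (points) by condition, with the mean and SD of 3 libraries (bars), on axes that start at 0. Hbegf shows 4 separate levels, Btc is lower in both stimulated conditions, and the unstimulated control libraries of Egfr, Nrg1 and Erbb3 spread widely.

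Betacellulin mRNA moved the other way. Btc was at 2.78, 3.2 and 3.12 CPM in unstimulated control libraries and at 0.97, 1.75 and 1.21 CPM in TGF-β1 control libraries, from 24 to 74 counts per library. All stimulated libraries lay below all unstimulated ones. It fell by 1.20 on the log2 scale (SE 0.255, edgeR adjusted p = 0.0113), to 43.2% of the unstimulated mean. In Smad7-KO cells it went from 4.21, 4.94 and 3.3 CPM to 1.76, 1.22 and 1.51 CPM, again without overlap. It fell there by 1.47 on the log2 scale (SE 0.25, edgeR adjusted p = 0.00248), to 36.1% of the unstimulated mean. The call in control cells was lost without TGF-β1 control library 1 (edgeR adjusted p = 0.0574) or library 3 (adjusted p = 0.0551). It was also lost with edgeR on only the libraries compared (adjusted p = 0.0954). The call in Smad7-KO cells held under all 22 alternatives run.

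Promoter sequence was held for 5 of the 10 genes in RefSeq (GRCm38.p6). The stretches of 250 bases just before the start of Btc and of Tgfa are shown, since these are the called ligands with a RefSeq entry. Capitals mark the letters CAGAC on either strand, the core that Smad proteins bind. They are given 5′ to 3′ on the gene's strand, for Btc from chr5:91402995-91403244 (minus strand) and for Tgfa from chr6:86194972-86195221 (plus strand).
Btc: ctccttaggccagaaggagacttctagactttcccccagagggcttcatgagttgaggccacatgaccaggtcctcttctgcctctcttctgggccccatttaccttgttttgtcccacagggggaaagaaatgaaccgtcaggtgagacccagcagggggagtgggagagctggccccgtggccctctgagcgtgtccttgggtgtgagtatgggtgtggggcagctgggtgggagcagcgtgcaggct
Tgfa: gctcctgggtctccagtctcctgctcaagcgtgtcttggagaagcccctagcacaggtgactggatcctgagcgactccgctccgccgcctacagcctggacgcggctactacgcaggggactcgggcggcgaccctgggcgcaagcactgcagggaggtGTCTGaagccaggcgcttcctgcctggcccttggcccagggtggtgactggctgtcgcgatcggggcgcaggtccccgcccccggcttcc
Btc held no CAGAC on either strand and Tgfa 1, as GTCTG. Of 32851 promoter stretches of that length, 42.2% held these letters. Neither stretch held TGANTCA, the letters that AP-1 factors bind, which 6.75% of the stretches hold. A match describes letters and not a site in use, and no match says only that the letters are not in this window.

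Epiregulin mRNA changed little. Ereg libraries had 57.3, 63.1 and 65.1 CPM in unstimulated and 76.7, 66.4 and 67.3 CPM in TGF-β1 control cells. These ranges did not overlap, but the log2 difference of 0.18 (95% interval -0.04 to 0.4) missed the threshold in edgeR (adjusted p = 0.355). In Smad7-KO cells Ereg rose 1.28-fold, from 43.9, 48.2 and 47.5 CPM to 60.8, 62.8 and 54.6 CPM (log2 fold change 0.35, SE 0.101, edgeR adjusted p = 0.0473). That call was lost in 10 of the 12 fits run without 1 library, all but those without unstimulated control library 2 or 3 (edgeR adjusted p of 0.0511 to 0.198 in the 10). The difference between the responses was 0.17 (95% interval -0.14 to 0.48).

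The receptors did not pass the test for TGF-β1 in either genotype in the main edgeR fit. Egfr had 30.6, 19.1 and 38.3 CPM in unstimulated control and 47.4, 33.1 and 38.4 CPM in TGF-β1 control libraries, which overlapped (log2 difference 0.43, 95% interval -0.05 to 0.9, edgeR adjusted p = 0.303). In Smad7-KO cells its libraries went from 32.2, 31.1 and 32.8 CPM to 39, 46.6 and 35.9 CPM without overlap (log2 difference 0.34, 95% interval -0.14 to 0.81, edgeR adjusted p = 0.469). Egfr has a gene length of 10208 bases, longer than that of 98.3% of tested genes. With each library's trend on gene length removed, the differences were 0.28 and 0.35 and passed in edgeR (adjusted p = 0.0457 and 0.0129). Erbb2 differed by -0.16 (95% interval -0.49 to 0.18) in control and by -0.08 (-0.42 to 0.26) in Smad7-KO cells. Erbb3 differed by -0.1 in control cells and by -0.82 in Smad7-KO cells (95% interval -1.61 to -0.03), where its libraries did not overlap but the edgeR adjusted p was 0.228. With edgeR on only the Smad7-KO libraries Egfr passed as higher (0.35, adjusted p = 0.0113) and Erbb3 as lower (-0.81, adjusted p = 0.0287). Over the alternatives, Egfr passed in 3 of 22 in control and in 5 of 22 in Smad7-KO cells. Erbb2 passed in 1 of 22 and 0 of 22, and Erbb3 in 0 of 21 and 2 of 21.

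Tgfa, Egf, Nrg1 and Nrg2 passed in neither genotype. Tgfa, the ligand TGF-α, differed by 0.12 (95% interval -0.35 to 0.59) in control and by -0.19 (-0.68 to 0.29) in Smad7-KO cells. Egf differed by -0.21 (-0.87 to 0.45) and -0.55 (-1.23 to 0.13), and Nrg1 by -0.38 (-0.97 to 0.21) and -0.16 (-0.77 to 0.44). Nrg2, at 0.25 to 0.639 CPM on average, differed by -0.63 (-1.84 to 0.57) and -0.71 (-2.05 to 0.64), intervals too wide to show a change at this depth. The libraries of both conditions did not overlap for 4 of the 10 genes in control cells (Hbegf and Ereg higher, Btc and Nrg2 lower), against 19.8% of all tested genes (10.9% higher, 9% lower). In Smad7-KO cells this held for 6 (Egfr, Hbegf and Ereg higher, Erbb3, Btc and Tgfa lower), against 39% (19% higher, 19.9% lower).

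The difference between the TGF-β1 responses of both genotypes was tested for each gene as an interaction. None of the 10 passed in edgeR, and none had an unadjusted p under 0.05. Erbb3 came lowest, with a difference of -0.72 (95% interval -1.88 to 0.45, edgeR adjusted p = 0.98). Among all tested genes 3 passed, which is 0.0198%, and 392 had an unadjusted p under 0.05. DESeq2 called 14 genes and none of the 10. With an interval as wide as that of Nrg2, from -1.78 to 1.64, a missed threshold does not show equal responses.

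**Figure D3:**
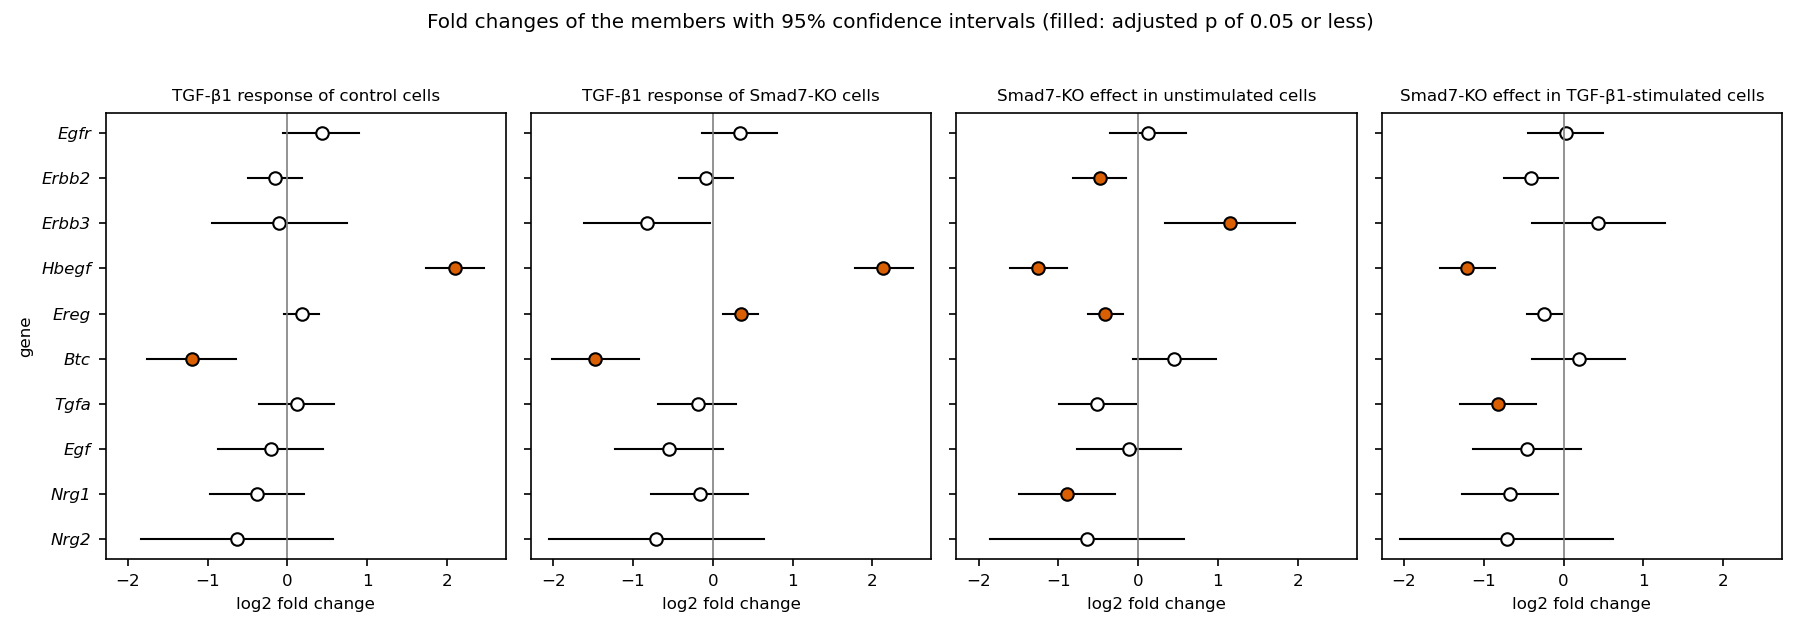
Log2 fold change of each gene in 4 comparisons (points) with its 95% confidence interval (lines), from edgeR. Filled points have an adjusted p of 0.05 or less; Hbegf is filled in all 4 panels, up with TGF-β1 and down with Smad7-KO, and Btc in both TGF-β1 panels.

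The composition of the ligand mRNA differed after TGF-β1. Summed over the 7 ligands, FPKM came to 36.5 ± 4.43 in unstimulated and 75.8 ± 5.1 in TGF-β1 control cells, and to 23 ± 1.31 and 40.4 ± 0.239 in Smad7-KO cells (SD, n = 3 each). Hbegf made up 32.1% ± 6.13 of that sum in unstimulated and 66.8% ± 1.46 in TGF-β1 control libraries. In Smad7-KO cells its share went from 21.2% ± 4.05 to 52.7% ± 3.41. Ereg took 40.8% ± 1.74 and 22.7% ± 0.757 in control cells and 49.3% ± 2.95 and 34.9% ± 2.38 in Smad7-KO cells. Ereg was thus the most abundant ligand mRNA in every unstimulated library and Hbegf in every stimulated library. The 3 receptors summed to 6.14 to 7.27 FPKM on average in the 4 conditions, and the libraries of any pair of conditions overlapped, except that unstimulated Smad7-KO (5.81 to 6.41) lay just under TGF-β1 control (6.42 to 8.42).

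**Figure D4:**
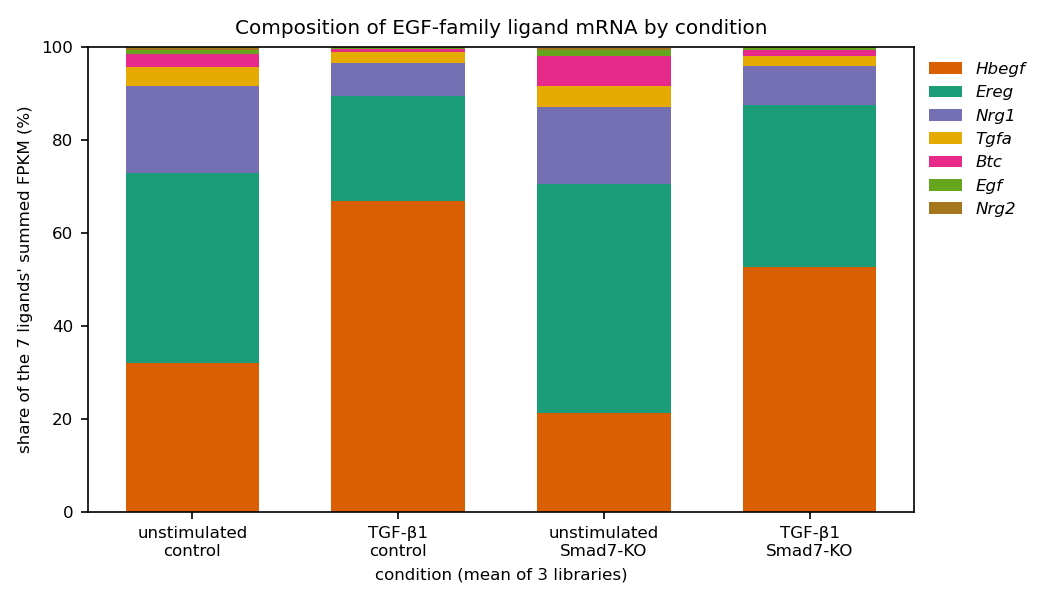
Mean share of each ligand in the summed FPKM of the 7 ligands, in percent, for the 4 conditions (3 libraries each). With TGF-β1 Hbegf takes 66.8% in control and 52.7% in Smad7-KO libraries, against 32.1% and 21.2% without TGF-β1.

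Within the receptors, the FPKM ratio of Egfr to Erbb2 was 0.892, 0.677 and 0.898 in unstimulated control libraries. It was 1.34, 1.12 and 1.29 in TGF-β1 control, 1.16, 1.37 and 1.31 in unstimulated Smad7-KO and 1.72, 1.87 and 1.52 in TGF-β1 Smad7-KO libraries. Erbb2 was thus the more abundant receptor mRNA in the 3 unstimulated control libraries and Egfr in the other 9. The ratio was looked at after the values were seen, and gene lengths of 10208 and 5012 bases mean that it moves with the length trend of a library. The part of that trend in the ratio was not tested.

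Several ligands were lower in Smad7-KO than in control cells. Between unstimulated Smad7-KO and control cells 5 of the 10 genes passed, against 25.8% of all tested genes, with Hbegf, Ereg, Nrg1 and Erbb2 lower (4 genes, against 13.7%) and Erbb3 higher (1 gene, against 12.1%). Between TGF-β1 Smad7-KO and TGF-β1 control cells 2 passed, Hbegf and Tgfa, both lower, against 13% of all tested genes (5.72% higher, 7.23% lower). Libraries did not overlap for 7 of the 10 genes in unstimulated cells (5 lower, 2 higher), against 41.3% of all tested genes (19.2% lower, 22.1% higher). In stimulated cells they did not overlap for 5 genes, all lower, against 44.9% (23% lower, 21.9% higher). The median over the 10 genes was -0.44 in both, beside -0.02 over all tested genes in both.

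Markers of other cell types moved with the same comparisons. Of 10 endothelial markers 8 fell in each Smad7-KO comparison, and their sum went from 275 to 326 CPM to 25.8 to 28 CPM in unstimulated cells and from 285 to 330 CPM to 28.1 to 28.8 CPM in stimulated cells, with Pecam1 at 2.06 to 4.47 CPM and not at 0. Of 10 macrophage markers 5 rose in unstimulated and 4 in stimulated Smad7-KO cells. Their sums overlapped without TGF-β1 (16200 to 26000 CPM in control libraries, 23000 to 25300 CPM in Smad7-KO) and did not overlap with it (16200 to 18900 CPM against 22400 to 25300 CPM). Of 8 tested mesothelial and epithelial markers 5 and 3 fell, with sums of 283 to 314 against 176 to 212 CPM in unstimulated cells and 265 to 280 against 169 to 183 CPM in stimulated cells. Of 8 tested smooth muscle and pericyte markers 3 and 2 fell, and their sums overlapped in both states (180 to 294 against 219 to 227 CPM, and 348 to 408 against 323 to 351 CPM). Pdgfrb made most of these sums. Those of the other 9 markers did not overlap in either state. They were lower in Smad7-KO libraries (75.4 to 100 against 64.6 to 73.1 CPM, and 99.5 to 102 against 71.6 to 76.4 CPM). Of 4 tested cardiomyocyte markers 2 fell in unstimulated cells and none in stimulated cells (34 to 78 against 18.5 to 25.5 CPM, and 28.8 to 34 against 19.4 to 22.5 CPM), and Nppa had 1 read in all. Tnnt2 made most of these cardiomyocyte sums. Sums of the other 9 markers overlapped in both states (3.84 to 8.06 against 2.82 to 4.82 CPM, and 4.21 to 5.61 against 2.88 to 6.74 CPM). Of 10 fibroblast markers 2 rose and 2 fell in each comparison. Their sums overlapped in unstimulated cells (7370 to 11400 against 9370 to 10000 CPM), whereas in stimulated cells those of the Smad7-KO libraries were all lower (9250 to 10100 against 8520 to 8620 CPM). The part of these cell types in the differences of the ErbB genes was not tested.

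Hbegf was lower in both Smad7-KO comparisons. Its unstimulated level fell by 1.25 on the log2 scale (SE 0.164, edgeR adjusted p = 0.000626), which left 41.9% of the control mean. With TGF-β1 it fell by 1.21 (SE 0.158, edgeR adjusted p = 8e-04), which left 43.3%. Without any 1 of the 12 libraries, and under the other alternatives, its log2 fold change stayed between -1.48 and -1.10 in unstimulated and between -1.25 and -1.11 in stimulated cells, past the threshold in all 22.

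The other unstimulated calls were less firm. With edgeR on only the libraries compared all of them were lost (edgeR adjusted p = 0.0899 for Ereg, 0.129 for Nrg1, 0.144 for Erbb2 and 0.133 for Erbb3). Ereg fell by 0.41 on the log2 scale (SE 0.101, edgeR adjusted p = 0.0161), to 75.2% of the control mean, with 43.9 to 48.2 CPM in Smad7-KO against 57.3 to 65.1 CPM in control libraries. Its call was lost without unstimulated Smad7-KO library 1, 2 or 3 (edgeR adjusted p = 0.074, 0.0506 and 0.0546). With TGF-β1 the Ereg difference was -0.24 (95% interval -0.46 to -0.02, edgeR adjusted p = 0.14). With the length trend removed that difference was -0.32 and passed (edgeR adjusted p = 0.021). Nrg1 fell by 0.89 (SE 0.273, edgeR adjusted p = 0.037), from 13.3, 9.03 and 21.6 CPM in control to 8.62, 6.74 and 8.46 CPM in Smad7-KO libraries. The ranges did not overlap, but control library 3 was well above the other control libraries, and without it Nrg1 fell by 0.49 (edgeR adjusted p = 0.0694, not past the threshold). The call was lost in 8 of the 12 fits run without 1 library (edgeR adjusted p of 0.0531 to 0.12 in the 8). It was also lost with the length trend removed (log2 fold change -0.76, edgeR adjusted p = 0.0928). With TGF-β1 the Nrg1 difference was -0.67 (95% interval -1.27 to -0.07, edgeR adjusted p = 0.133). It passed in 3 of 22 alternatives. These were edgeR on only the libraries compared (-0.66, adjusted p = 0.0167) and the fits without unstimulated control library 2 or 3 (adjusted p = 0.033 and 0.0271).

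In unstimulated cells Erbb2 fell by 0.48 on the log2 scale (SE 0.154, edgeR adjusted p = 0.0415), from 16.9, 13.9 and 21 CPM in control to 13.6, 11.2 and 12.3 CPM in Smad7-KO libraries. No libraries overlapped, though the lowest control and the highest Smad7-KO library were close. The call was lost in 10 of the 12 fits run without 1 library, all but those without TGF-β1 control library 1 or unstimulated control library 2 (edgeR adjusted p of 0.0553 to 0.135 in the 10). With TGF-β1 the Erbb2 difference was -0.41 (95% interval -0.75 to -0.07, edgeR adjusted p = 0.105), with 17.3, 14.6 and 14.6 CPM in control and 11.1, 12.3 and 11.6 CPM in Smad7-KO libraries. With the length trend removed it was -0.54 and passed (edgeR adjusted p = 0.00211).

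Erbb3 rose 2.22-fold in unstimulated Smad7-KO cells (95% interval 1.27 to 3.91, edgeR adjusted p = 0.043). Its libraries had 1.43, 0.514 and 1.9 CPM in control and 2.92, 2.96 and 2.86 CPM in Smad7-KO cells, from 9 to 69 counts each. The Smad7-KO libraries were close together, and control library 2, with 9 counts, was far below the other control libraries. The call was lost in 10 of the 12 fits run without 1 library, all but those without unstimulated control library 3 or TGF-β1 Smad7-KO library 3 (edgeR adjusted p of 0.0502 to 0.104 in the 10). Without control library 2 the log2 fold change was 0.81 in place of 1.15. Erbb3 is a marker of Schwann cells, whose 10 other markers summed to 28.5 to 45.8 against 52.3 to 60 CPM in unstimulated and 36.9 to 46.6 against 52.6 to 56.8 CPM in stimulated cells. Mbp, a myelin protein gene, made most of that sum, with means of 23.9 and 45.9 CPM in unstimulated cells (log2 fold change 0.94, edgeR adjusted p = 0.00644) and 30.5 and 45.6 CPM in stimulated cells (0.58, edgeR adjusted p = 0.0656). The other 9 markers summed to 11.4 to 14.8 against 8.8 to 12.4 CPM and to 11.6 to 12.1 against 8.87 to 9.73 CPM, and so were not higher in Smad7-KO libraries. Of these 10, 5 passed the filter, 1 rose and 1 fell in unstimulated and 1 fell in stimulated cells, and the defining markers Sox10 and Foxd3 had 25 and 4 reads in all 12 libraries together. With TGF-β1 the Erbb3 difference was 0.43 (95% interval -0.4 to 1.27), and its libraries overlapped.

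Tgfa passed in the comparison of stimulated cells. It fell by 0.82 on the log2 scale there (SE 0.218, edgeR adjusted p = 0.0294), from 8.25, 5.98 and 6.8 CPM in control to 3.19, 4.34 and 4.39 CPM in Smad7-KO libraries. Those ranges did not overlap, yet the call was lost without any 1 of the 6 libraries compared (edgeR adjusted p of 0.0508 to 0.127). In unstimulated cells the difference was -0.51 (95% interval -0.99 to -0.03, edgeR adjusted p = 0.0949). The difference between both was -0.31 (95% interval -0.98 to 0.36). With the length trend removed the Tgfa difference in unstimulated cells was -0.65 and passed (edgeR adjusted p = 0.0202).

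Egfr mRNA did not pass in either Smad7-KO comparison, with log2 differences of 0.12 (95% interval -0.35 to 0.6) and 0.03 (-0.44 to 0.5). With the length trend removed, the differences turned to -0.36 and -0.29 and passed as lower (edgeR adjusted p = 0.00921 and 0.0276), so that neither direction can be taken from these libraries. Btc differed by 0.45 (-0.07 to 0.97) without and by 0.19 (-0.39 to 0.77) with TGF-β1. Egf differed by -0.11 and -0.46 and Nrg2 by -0.64 and -0.71, each with an interval that held 0.

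Of the other ErbB genes the table holds Erbb4, Areg, Epgn, Nrg3 and Nrg4. Erbb4, the neuregulin receptor of cardiomyocytes, had 0 to 9 reads in a library, and Areg, which encodes amphiregulin, 0 to 3 reads. Epgn had 0 to 4 and Nrg3 0 to 7 reads, and none of these 4 passed the filter. Nrg4 was tested at 0.655 to 1.03 CPM on average and passed in no comparison.

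Around the receptors, lists of genes were counted for the steps before and after them. The first holds the proteases that release the ligands and their regulators, of which 13 were tested. In each TGF-β1 comparison 4 rose and 0 fell. The count in control cells went from 2, without TGF-β1 control library 1 or 3, to 8, without unstimulated control library 3. That in Smad7-KO cells went from 2, without TGF-β1 Smad7-KO library 2 or any unstimulated Smad7-KO library, to 5. Adam12, a membrane protease known for releasing HB-EGF, rose from 1.98 ± 0.644 to 9.11 ± 2.39 CPM in control and from 3.03 ± 0.735 to 16.5 ± 3.17 CPM in Smad7-KO cells (SD, n = 3 each). Its log2 fold changes were 2.18 and 2.44 (edgeR adjusted p = 0.000593 and 0.000165), past the threshold in all 22 alternatives. Rhbdf1 and Rhbdf2, the inactive rhomboids that accompany the protease ADAM17 to the cell surface, rose by 0.63 and 0.62 in control cells (edgeR adjusted p = 0.00238 and 0.0155) and by 0.61 and 0.59 in Smad7-KO cells (adjusted p = 0.00264 and 0.0163). The Rhbdf1 calls were lost in 1 and 0 of 22 alternatives and the Rhbdf2 calls in 3 and 5. Adam10, which like ADAM17 cuts many surface proteins, was the other called gene in both, with 0.57 and 0.59 (edgeR adjusted p = 0.0317 and 0.0235).

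In the Smad7-KO comparisons 3 of the 13 rose and 3 fell without TGF-β1, and 2 rose and 2 fell with it. The 6 called without TGF-β1 were 3 when unstimulated Smad7-KO library 1 or 2 was left out and 11 without unstimulated control library 3. The 4 called with it were 2 without TGF-β1 Smad7-KO library 2 or TGF-β1 control library 2, and 7 without unstimulated control library 2 or 3. Adam17, the main protease for several EGFR ligands, rose from 157 ± 18.3 to 272 ± 6.3 CPM in unstimulated cells and from 168 ± 23.3 to 258 ± 20.6 CPM in stimulated cells. Its log2 fold changes were 0.79 and 0.62 (edgeR adjusted p = 0.00177 and 0.00804) and held in all 22 alternatives. Rhbdl2, a rhomboid protease of the cell surface, fell by 1.41 and by 1.84 (edgeR adjusted p = 0.00522 and 0.00199) at 0.502 to 1.94 CPM on average.

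Of 31 adaptors and effectors, 2 rose and 1 fell with TGF-β1 in control cells and 4 fell in Smad7-KO cells. Gab1, a docking protein that recruits PI3K and SHP2 to activated receptors, went from 73.3 ± 4.01 to 40.7 ± 0.144 CPM in control and from 74 ± 0.765 to 38.3 ± 0.665 CPM in Smad7-KO cells (SD, n = 3 each). It fell by 0.85 and by 0.95 on the log2 scale (edgeR adjusted p = 5.22e-05 and 1.99e-05). Eps8, a substrate of EGFR, fell by 0.94 and the adaptor Nck2 by 0.72 in Smad7-KO cells (edgeR adjusted p = 0.000695 and 0.001). In control cells Eps8 and Nck2 differed by -0.39 and -0.32 and missed the threshold (edgeR adjusted p = 0.105 and 0.0936), and no interaction on this list passed. With Smad7-KO 8 rose and 2 fell in unstimulated and 4 rose and 1 fell in stimulated cells. Grb2, the adaptor that links receptors to Ras, rose by 0.5 and 0.29 (edgeR adjusted p = 0.00222 and 0.0344), the latter lost in 12 of 22 alternatives, and Nck2 fell by 0.56 in stimulated cells (edgeR adjusted p = 0.0066). With 1 library left out the TGF-β1 counts were 2 to 8 in control cells (8 without unstimulated control library 3) and 3 to 8 in Smad7-KO cells (8 and 7 without unstimulated control library 2 and 3). The Smad7-KO counts were 1 (without unstimulated Smad7-KO library 2) to 15 in unstimulated cells, under 10 by more than 1.5 times in 8 of 12 fits. In stimulated cells they were 1 to 13 (13 and 9 without unstimulated control library 2 and 3), under 5 by as much in 9 of 12.

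Of 26 genes for receptor turnover and feedback inhibition, 3 rose and 1 fell with TGF-β1 in control cells and 2 rose and 1 fell in Smad7-KO cells. Lrig3 and Lrig1, membrane proteins of the LRIG family, of which LRIG1 lowers ErbB receptor levels, rose by 0.81 and 0.94 in control cells (edgeR adjusted p = 0.00236 and 0.0053) and by 0.87 and 0.67 in Smad7-KO cells (adjusted p = 0.00133 and 0.0306). Lrig1 was at 20.8 ± 5.15 and 40.1 ± 6.05 CPM in control cells and at 19.2 ± 2.42 and 30.6 ± 1.01 CPM in Smad7-KO cells, and its call there was lost in 7 of 22 alternatives. Spry1, a feedback inhibitor of Ras signalling, rose by 0.58 in control cells (edgeR adjusted p = 0.0119) and differed by 0.41 in Smad7-KO cells (adjusted p = 0.0602). With Smad7-KO 6 rose and 2 fell in unstimulated and 4 rose and 2 fell in stimulated cells. Ptpn1, a phosphatase that acts on receptor kinases, rose by 0.85 and 0.6 (edgeR adjusted p = 0.00324 and 0.0223), and Dusp6, a phosphatase of ERK, by 0.38 and 0.46 (adjusted p = 0.0106 and 0.00542). The Ptpn1 call in stimulated cells was lost in 5 of 22 alternatives, with limma and without TGF-β1 Smad7-KO library 1 or 2 or TGF-β1 control library 2 or 3 (adjusted p of 0.056 to 0.0952). With 1 library left out the TGF-β1 counts on this list were 3 to 11 in control cells (11 without unstimulated control library 3) and 1 to 6 in Smad7-KO cells (6 without unstimulated control library 2). The Smad7-KO counts were 2 (without unstimulated Smad7-KO library 2) to 15 (without unstimulated control library 3) in unstimulated cells. In stimulated cells they were 1 to 12, moving by more than 1.5 times in every fit, up without unstimulated control library 2 or 3 and down in the other 10.

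Of 16 ERK target genes, 3 rose and 1 fell with TGF-β1 in control cells and 4 rose and 2 fell in Smad7-KO cells. Egr2 and Junb, transcription factors of the early response, rose by 1.22 and 0.9 in control cells (edgeR adjusted p = 0.000201 and 0.00542) and by 0.91 and 1.26 in Smad7-KO cells (adjusted p = 0.0012 and 0.000531). Dusp1, a phosphatase that inactivates MAP kinases, went against them, from 72.6 ± 5.04 to 26.1 ± 1.99 CPM in control and from 46 ± 3.17 to 15.7 ± 0.934 CPM in Smad7-KO cells (SD, n = 3 each). It fell by 1.48 and by 1.55 on the log2 scale (edgeR adjusted p = 4.95e-06 and 3.12e-06). With Smad7-KO none of the 16 rose, and 5 fell in unstimulated and 4 in stimulated cells. Dusp6, the ERK phosphatase counted above with the feedback inhibitors and not on this list, rose in both. Egr1 fell by 1.28 in unstimulated cells (edgeR adjusted p = 0.000779), from 47.7 ± 1.89 to 19.6 ± 5.63 CPM, and Dusp1 fell by 0.66 and by 0.73 (adjusted p = 0.00153 and 0.00119). With edgeR on only the libraries compared the TGF-β1 counts on this list were 2 and 9. With 1 library left out they stayed within 1.5 times (4 to 6 and 4 to 8). The Smad7-KO counts were 2 (without unstimulated Smad7-KO library 1 or 2) to 8 (without unstimulated control library 3) in unstimulated cells and 2 to 5 in stimulated cells, the latter lower by more than 1.5 times in 7 of 12 fits.

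Set beside the shares over all tested genes (8.37%, 10.2%, 25.8% and 13% in the order of the comparisons above), the called share was 30.8%, 30.8%, 46.2% and 30.8% for the proteases and their regulators. It was 9.68%, 12.9%, 32.3% and 16.1% for adaptors and effectors, 15.4%, 11.5%, 30.8% and 23.1% for turnover and feedback, and 25%, 37.5%, 31.2% and 25% for ERK targets. These shares rest on the counts above, which move with single libraries, and no difference from the background was tested. With edgeR on only the libraries compared, the counts in that order were 1, 8, 1 and 8 for proteases and regulators. They were 1, 10, 0 and 13 for adaptors and effectors. For turnover and feedback they were 0, 9, 0 and 13, and for ERK targets 2, 9, 2 and 5. Over all tested genes they were 391, 3792, 660 and 4453. The list medians of the log2 fold change with TGF-β1 were 0.45 and 0.28 for the proteases and their regulators and 0.23 and 0.32 for ERK targets, and lay between 0.04 and 0.08 for both other lists. With Smad7-KO the ERK target medians were -0.3 and -0.26.

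**Figure D5:**
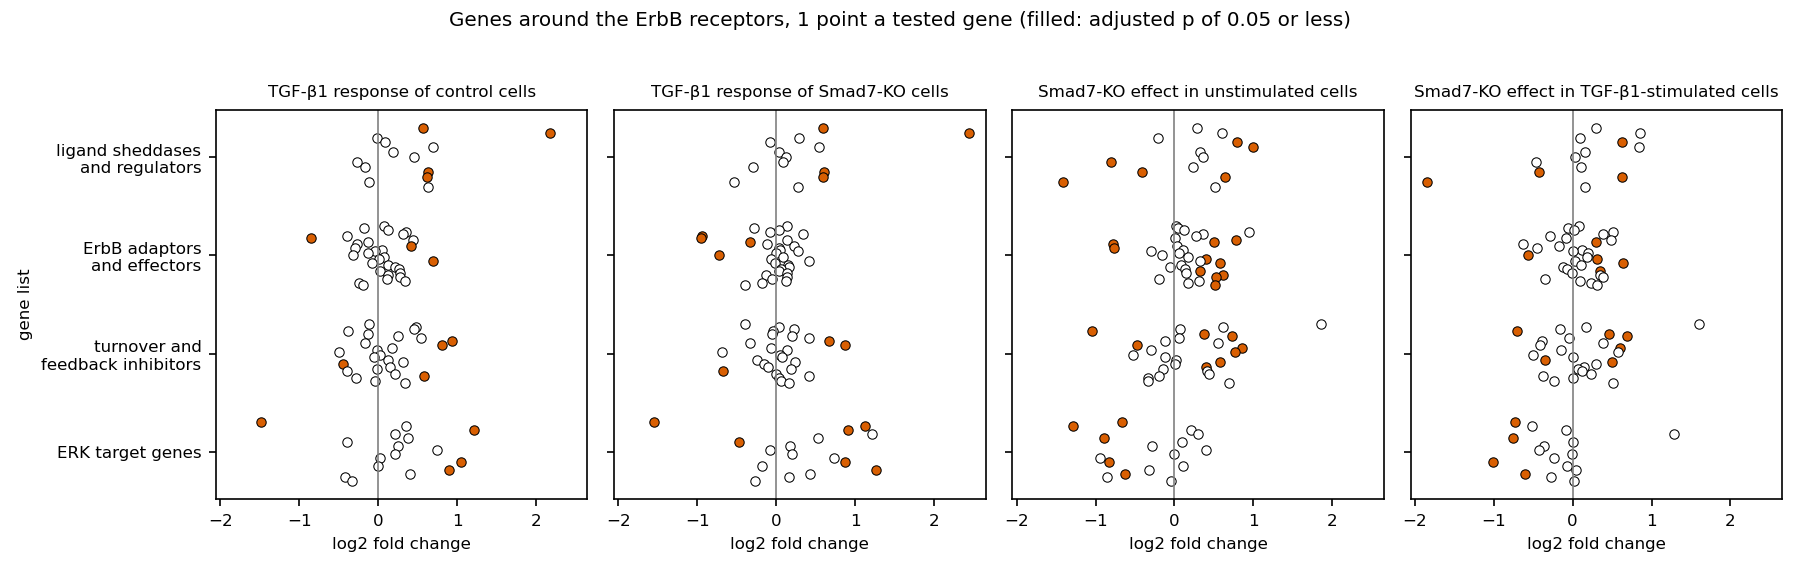
Log2 fold change of each tested gene of 4 lists around the ErbB receptors in 4 comparisons, from edgeR; filled points have an adjusted p of 0.05 or less. In the list of ligand sheddases all 4 called genes are to the right of 0 in both TGF-β1 panels, and among ERK target genes the 5 and 4 called genes are to the left of 0 in the Smad7-KO panels.

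The genes whose levels ran most like those of the 2 members with the lowest p for TGF-β1 in control cells were found by Pearson's r of log2 CPM over the 12 libraries, among the 12202 tested genes whose average log2 CPM reached 1. The libraries share the 4 conditions, so these values describe likeness of pattern only. For Hbegf they were Ctgf (0.988), Rasl11b (0.985) and Tnfrsf12a (0.984). Ctgf, which encodes a secreted matricellular protein, was at 934 ± 326 and 3250 ± 307 CPM in control cells and at 327 ± 29.5 and 1580 ± 134 CPM in Smad7-KO cells without and with TGF-β1 (SD, n = 3 each). Tnfrsf12a, the receptor for TWEAK, was at 51.4 ± 9.74, 118 ± 13.7, 28 ± 2.77 and 70.5 ± 10.7 CPM in the same order. These genes share with Hbegf the order of the 4 condition means. For Btc they included Cyp27a1 (0.957), a sterol hydroxylase, and Slc40a1 (0.946), the iron exporter ferroportin. Slc40a1 was at 309 ± 63.9 and 57.9 ± 2.64 CPM in control cells and at 628 ± 36.7 and 90.6 ± 10.6 CPM in Smad7-KO cells.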

How the data were processed

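Poly(A) RNA of mouse cardiac fibroblasts was sequenced in 12 libraries as 100-base paired reads, with 19056916 to 25371321 counts each. Per the labels, the authors' processing notes name CASAVA, TopHat2 2.0, Cufflinks 2.1.1 and HTSeq 0.6.1 and the builds mm10 and GRCm38.p6. The table the authors deposited holds raw read counts (whole numbers) and FPKM values for 35275 genes. Each FPKM equalled the count divided by the gene's length and the library's total (tolerance 1e-06). GENCODE M21 held 34490 of the identifiers, and 99.84% of these overlapped its interval.

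Groups came from the sample titles. The counts were fitted in edgeR 4.0.16 (R 4.3.3): filterByExpr with a minimum count of 10, TMM scaling (CPM values are on it), and a robust quasi-likelihood fit to all 12 libraries, with Benjamini-Hochberg adjustment over all 15150 tested genes and a threshold of 0.05. A standard error is the size of the log2 fold change over the square root of its F. Alternatives were DESeq2 1.42.0, edgeR on only the libraries compared, DESeq2's size factors, no filter, limma 3.58.1 on log2(FPKM + 1) with at least 1 FPKM in 3 libraries, the replicate number as a block, removal of each library's loess trend (span 0.3) on gene length, and leaving out each library. Removal of a trend on length and GC content, alone and with the block, was chosen after the data were seen, as were the marker sums without each list's highest gene. The difference of the TGF-β1 responses needs all 4 conditions and had no fit on fewer. The procedure was tested on simulated counts.

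The members, the gene lists and the rule for named genes were chosen with earlier results of these data known. The rule takes the 10 members, Smad7, of each list up to 3 called genes of lowest adjusted p for TGF-β1 and 2 for Smad7-KO, and the 3 genes most like each of 2 members, of which 1 is not reported here. Adam10, Mbp, Pdgfrb and Tnnt2, named besides, were chosen after their values were seen. Of 14 proteases and regulators, 13 were found by symbol. Intervals are at 95% and cover the spread between libraries. The number of columns without a sample was 0. Replicates differed by more than sampling noise (chi-square per gene from 3.09 to 241 over the pairs), so none was counted as the same library.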

Additional observations from a re-analysis of the deposited data

How the results depend on the processing

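Hbegf kept its direction and stayed past the threshold in all 22 alternatives of each of the 4 comparisons, and Btc did so for TGF-β1 in Smad7-KO cells. The number of the 10 genes called moved more. For TGF-β1 in control cells it was 2, and 1 with edgeR on only the libraries compared, 4 with the length and GC trend removed and 1 to 3 with 1 library left out. For TGF-β1 in Smad7-KO cells it was 3, and 5 with only the libraries compared, 2 in 13 of the 22 alternatives (limma, no filter, the block and 10 of 12 fits run without 1 library) and 2 to 4 with 1 library left out. For Smad7-KO in unstimulated cells it was 5, and 1 with only the libraries compared, 2 with limma on log2(FPKM + 1), 3 without a filter and 1 to 4 with 1 library left out. In the same comparison it was 6 with the length trend removed and 7 with the length and GC trend removed. For Smad7-KO with TGF-β1 it was 2, and 4 with only the libraries compared, 5 with the length trend or the length and GC trend removed and 1 to 4 with 1 library left out. The cause was not tested, save that a fit on only 6 libraries estimates the spread from fewer and from those conditions alone.

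The replicate numbers showed no sign of pairing the libraries. Deviations of libraries with the same number correlated between -0.36 and 0.52, over 0.1 in 1 of 18 pairs. Those with other numbers correlated between -0.56 and 0.55, over 0.1 in 6 of 36. With 3 libraries a condition this cannot exclude a shared origin. With the replicate number as a block, 3 of the 10 genes were called for Smad7-KO in unstimulated cells, and with the block and the length trend, or the length and GC trend, removed 4 for Smad7-KO with TGF-β1.

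Several values that passed in no reported comparison changed sign. Egfr with Smad7-KO in unstimulated cells was -0.36 and -0.35 with the length or the length and GC trend removed, and -0.36 and -0.35 with the block as well (-0.1 to 0.36 with 1 library left out). With TGF-β1 it was -0.29 and -0.28, -0.29 and -0.28 with the block, and 0 with limma (-0.08 to 0.18). For the difference of the TGF-β1 responses Egfr was 0.07 in these 4 fits (-0.33 to 0.15), and Hbegf -0.12 with limma (-0.06 to 0.27). With 1 library left out that difference was -0.44 to 0 for Btc, -0.09 to 0.22 for Erbb2, -0.17 to 0.49 for Nrg1 and -0.64 to 0.41 for Nrg2. The TGF-β1 response of control cells was -0.29 to 0.01 for Erbb2, -0.45 to 0.29 for Erbb3, -0.63 to 0.01 for Nrg1 and -0.01 to 0.39 for Tgfa, and Egf with Smad7-KO in unstimulated cells was -0.29 to 0.04. Of all tested genes, 1268, 1550, 3907 and 1962 were called in the 4 comparisons, and 391, 3792, 660 and 4453 with only the libraries compared. With the length trend removed they were 2209, 2507, 4575 and 3405. With 1 library left out they were 825 (without TGF-β1 control 1 or 3) to 3449 (without unstimulated control 3), 985 (without TGF-β1 Smad7-KO 1) to 2535 (without unstimulated control 2), 1535 (without unstimulated Smad7-KO 3) to 7979 (without unstimulated control 3) and 883 (without TGF-β1 control 2) to 4465 (without unstimulated control 2). Of genes called for Smad7-KO with TGF-β1, 44.1% were higher, and 33.2% with limma. The difference of the responses gave 3 genes, 14 with DESeq2, 0 with limma or the block and 6 to 8 with the trends removed. Nrg2, Erbb3 and Egf, with at most 69 counts a library, are limited by depth.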
